A study of Mus musculus with 22 samples.

Results

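The lysosome genes described here are 32 mouse genes, of 45777 listed in the count tables, that were chosen by symbol. They comprise 9 peptidases (Ctsa, Ctsb, Ctsd, Ctsl, Ctss, Ctsz, Ctsh, Ctsk and Tpp1), 6 glycosidases (Gla, Glb1, Hexa, Gusb, Man2b1 and Neu1), and 6 genes of lipid hydrolysis and lipid handling (Lipa, Ppt1, Npc1, Npc2, Psap and Grn). The others are 4 membrane proteins (Lamp1, Lamp2, Cd63 and Mcoln1), 6 components of the proton pump (Atp6v0d1, Atp6v1a, Atp6v1b2, Atp6v0a1, Atp6v1h and Atp6ap1) and the transcription factor Tfeb. All 32 were found and passed the filter on low counts in both tables.

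RNA was sequenced from livers of male wild-type C57BL/6J mice in 2 cohorts of 11 libraries. The first cohort comprised 4 libraries from the high-fat diet (HFD) with DTMB, 4 from the same diet with vehicle, and 3 from normal diet (ND) with vehicle. The second comprised 3 libraries from a methionine-choline-deficient (MCD) diet with DTMB, 4 from that diet with vehicle, and 4 from normal diet with vehicle. The labels number the libraries as biological replicates without saying that each is a separate animal; they are called livers below. DTMB is a compound known from the labels only by this code name, and it was given by mouth at 10 mg/kg/day. The labels call the HFD animals MASLD (metabolic dysfunction-associated steatotic liver disease), the MCD animals MASH (its steatohepatitis form) and the ND animals normal. Neither the animals' age nor the length of the diets is in the labels, and no group on normal diet with DTMB was analysed here. Whole liver was sequenced, so a change in the number of cells of a type and a change in RNA per cell cannot be told apart in any of the values below.

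Lysosomes are acidic organelles in which hydrolases break down protein, glycans and lipids delivered by endocytosis and autophagy. The vacuolar proton pump (V-ATPase), made of a cytosolic V1 sector that hydrolyses ATP and a membrane V0 sector that carries protons, keeps the lumen acidic. In liver, both hepatocytes and macrophages depend on lysosomes to clear lipid droplets, lipoproteins and cell debris, and Tfeb is a master transcription factor for lysosomal genes that binds promoter sites built around the letters CACGTG.

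Promoter windows from 250 bases before to 50 bases after the transcription start were present for 27 of the 32 genes in the RefSeq table (build GRCm38.p6). The palindrome CACGTG, which reads the same on both strands, was found in 9 of these 27 genes (33.3%), in 17 of 76 other lysosomal and autophagy genes (22.4%) and in 2187 of all 27025 genes with a window (8.09%). The longer form GTCACGTG, searched on both strands and containing the shorter one, was found in 7 of 27 (25.9%), 10 of 76 (13.2%) and 689 of 27025 (2.55%). A match describes the letters only. The windows below are shown because their genes went different ways on the diets: Ctsd rose on the MCD diet, Glb1 went in opposite directions on the 2 diets, Lamp1 rose on the HFD, and Mcoln1 was called on neither. Capitals mark CACGTG, and each sequence runs 5′ to 3′ on the gene's strand, upstream of the annotated start.
Ctsd (chr7:142387908-142387937, minus strand): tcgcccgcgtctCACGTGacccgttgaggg
Ctsd (chr7:142388055-142388077, minus strand): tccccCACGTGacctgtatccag
Glb1 (chr9:114401018-114401047, plus strand): ctgcttctgagtCACGTGgcctacagaggc
Lamp1 (chr8:13159088-13159160, plus strand): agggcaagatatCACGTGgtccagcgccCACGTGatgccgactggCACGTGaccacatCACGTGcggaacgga
Mcoln1 (chr8:3500436-3500491, plus strand): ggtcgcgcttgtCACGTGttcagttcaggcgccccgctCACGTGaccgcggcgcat
The Lamp1 window holds 4 copies within 73 bases and the Mcoln1 window 2 within 56 bases, while the Glb1 window holds 1. Ctsa, Ctsl, Gla, Atp6v0d1 and Atp6v1a were the other 5 members with CACGTG in the window; of the 9, the MCD diet raised Ctsd, Ctsl, Atp6v0d1 and Atp6v1a and lowered Glb1, as described below. RefSeq windows of Ctsb, Ctsh, Npc1, Atp6v1b2 and Atp6v1h were not analysed here.

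Library totals were 50078966 to 66727450 counts, and the 8 summed hepatocyte markers reached 86791 to 133531 CPM (counts-per-million) in every library. CPM here are counts divided by the library total scaled by edgeR's TMM factor, computed in each cohort separately. A level in one cohort is therefore not tested against a level in the other. Transcripts of pancreatic acinar cells exceeded 100 CPM in 6 libraries: HFD with DTMB 3, HFD with vehicle 1 and 4, ND 1 and 3 of the HFD cohort, and ND 4 of the MCD cohort. Genes were tested with edgeR's quasi-likelihood test, with Benjamini-Hochberg adjustment across every gene tested, and a gene was called at an adjusted p below 0.05. Scaling by library total alone moved the median log2 fold change of all genes to 0.47 for the MCD diet, 0.14 for the HFD and -0.17 for DTMB on the HFD, against 0.0039, 0.015 and -0.015 with TMM. All fold changes below are with TMM, which sets them relative to the bulk of genes. Per kilobase of the longest annotated coding transcript, Lamp1 was the highest of the 32 in HFD livers with vehicle (333 ± 12.2 CPM per kilobase, SD, n = 4), and Ctsk the lowest in both diet groups with vehicle (0.426 ± 0.305 on the HFD and 2.33 ± 0.738 on the MCD diet, n = 4 each). In MCD livers with vehicle, Ctsd (387 ± 67.2) and Ctsl (371 ± 104) stood above Lamp1 (340 ± 16.2). These ranks depend on the transcript chosen, which had 6168 bases for Ctsl and 2229 for Lamp1.

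The MCD diet was the condition in which most of these genes rose. Of the 32, 17 rose and 2 fell in MCD livers with vehicle relative to ND livers, while 41.3% of all genes tested were called, 20.3% higher and 21% lower. The members' median log2 fold change was 0.34, against 0.0039 for all genes. The MCD vehicle and ND groups did not overlap upwards in 17 members and downwards in 2, where 17.8% and 19.9% of all genes did so. With library totals alone, 30 members were called higher and 1 lower (7683 and 1170 genes of all), and the members' median of 0.83 stood beside an all-gene median of 0.47. With TMM, 3253 genes of all were called higher and 3373 lower.

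**Figure D1:**
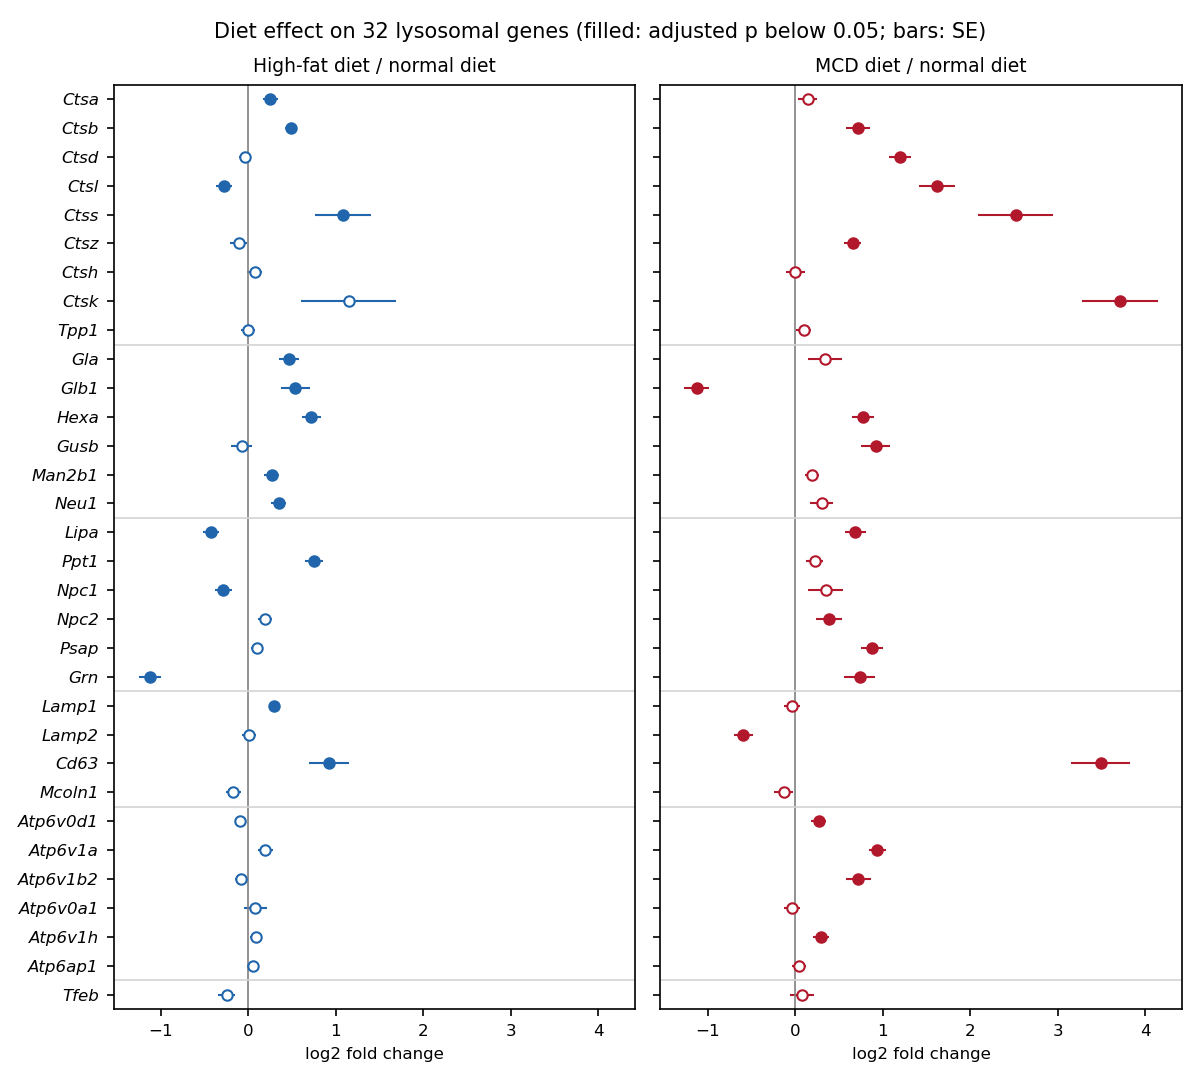
Log2 fold change of each of the 32 genes in vehicle-treated livers on the high-fat diet (left) and on the MCD diet (right), each relative to vehicle-treated normal-diet livers of its cohort; bars are the standard error, filled points have an adjusted p below 0.05, and grey lines separate the functional groups. On the MCD diet 17 genes lie to the right of zero with filled points, led by Ctsk and Cd63 above 3, while the HFD changes lie between -1.12 and 1.15.

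Among the peptidases, 6 of 9 rose on the MCD diet. Ctsk (gene ID 13038, chr3:95499210-95509387), a cysteine protease best known for collagen breakdown by osteoclasts, had 2.69, 5.14, 2.88 and 3.41 CPM in MCD livers with vehicle, against 0.277, 0.0902, 0.349 and 0.345 CPM in ND livers. Every MCD library was far above every ND library, although the gene stayed at a few CPM at most and the ND libraries held only 15, 4, 18 and 16 counts of it. The log2 fold change was 3.71 ± 0.44 (SE; adjusted p = 5.97e-05, edgeR). Ctss (gene ID 13040, chr3:95526786-95556405), the cysteine protease that trims the invariant chain in antigen-presenting cells, had 93.3, 216.6, 143 and 107 CPM in MCD livers with vehicle, against 17.1, 47.9, 18.1 and 14.5 CPM in ND livers. The groups did not overlap, with MCD liver 2 and ND liver 2 the highest of each, and the log2 fold change was 2.52 ± 0.43 (adjusted p = 7.63e-04, edgeR). Ctsk and Ctss are neighbours on chromosome 3, 17398 bases apart.

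Ctsd and Ctsl, the abundant aspartic and cysteine endopeptidases that most cell types use for bulk protein breakdown, also rose. Ctsd (gene ID 13033) had 713, 1033, 774 and 773 CPM in MCD livers with vehicle, against 363, 385, 357 and 330.04 CPM in ND livers. Ctsl (gene ID 13039) had 3157, 1715, 1920 and 2349 CPM in MCD livers with vehicle, against 955, 760, 647 and 607 CPM in ND livers. Neither gene's groups overlapped. The log2 fold changes were 1.20 ± 0.13 for Ctsd (adjusted p = 2.86e-05) and 1.62 ± 0.20 for Ctsl (adjusted p = 9.66e-05, edgeR). The MCD liver with the most Ctsd, replicate 2, had the least Ctsl of its group. Ctsb, a cysteine protease with both endopeptidase and dipeptidase activity, averaged 973 ± 83.9 CPM in MCD livers with vehicle and 592 ± 94.5 CPM in ND livers (SD, n = 4 each). The carboxypeptidase Ctsz averaged 302 ± 24.6 CPM in MCD livers with vehicle and 191 ± 13.0 CPM in ND livers (n = 4 each). Both rose, Ctsb with a log2 fold change of 0.72 and Ctsz with 0.66. The protective protein and carboxypeptidase Ctsa, the aminopeptidase Ctsh and the tripeptidyl peptidase Tpp1 were not called, with log2 fold changes of 0.14, 0.004 and 0.098.

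The glycosidases did not move as a block on the MCD diet. Glb1 (gene ID 12091, chr9:114401078-114474379), the beta-galactosidase that cleaves galactose from gangliosides, had 5.51, 7.62, 5.62 and 5.63 CPM in MCD livers with vehicle, against 12.5, 14.1, 13.2 and 13.4 CPM in ND livers. All MCD libraries lay below all ND libraries, at under 8 CPM. The log2 fold change was -1.12 ± 0.14 (adjusted p = 1.07e-04, edgeR), and -0.65 (adjusted p = 0.00533) with library totals alone. Gusb, the beta-glucuronidase, and Hexa, the alpha subunit of beta-hexosaminidase, rose. Gusb averaged 52.0 ± 12.3 CPM in MCD livers with vehicle and 27.5 ± 3.75 CPM in ND livers, with a log2 fold change of 0.92. Hexa averaged 71.7 ± 11.5 CPM in MCD livers with vehicle and 41.9 ± 4.46 CPM in ND livers, with a log2 fold change of 0.78. The alpha-galactosidase Gla, the alpha-mannosidase Man2b1 and the sialidase Neu1 were not called, and their log2 fold changes were 0.34, 0.19 and 0.30.

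Of the 6 genes of lipid hydrolysis and handling, 4 rose on the MCD diet (Psap, Lipa, Grn and, by a narrow margin, Npc2) and none fell. Psap (gene ID 19156) encodes prosaposin, the precursor of the activators that present sphingolipids to hydrolases. It had 734, 1080.3, 795 and 807 CPM in MCD livers with vehicle, against 461, 502, 457 and 437 CPM in ND livers, without overlap (log2 fold change 0.88 ± 0.13, adjusted p = 3.12e-04, edgeR). Lipa encodes lysosomal acid lipase, which hydrolyses cholesteryl esters and triglycerides taken up with lipoproteins. It had 315, 411, 352 and 309 CPM in MCD livers with vehicle, against 248, 205, 222 and 185 CPM in ND livers, again without overlap (log2 fold change 0.69 ± 0.12, adjusted p = 0.00102, edgeR). Grn encodes progranulin, a secreted and lysosomal glycoprotein. It had 211, 267, 221 and 199 CPM in MCD livers with vehicle, against 179, 145, 122 and 93.3 CPM in ND livers (log2 fold change 0.74 ± 0.18, adjusted p = 0.00577, edgeR). Each of these 3 genes was lower in every ND library than in every MCD library with vehicle. Npc2, the soluble cholesterol carrier of the lumen, had a log2 fold change of 0.39 with overlapping groups (adjusted p = 0.048), and its call was lost when any 1 of 8 of the 11 libraries was left out, with an adjusted p of 0.0504 to 0.131. Its membrane partner Npc1 and the palmitoyl thioesterase Ppt1, with log2 fold changes of 0.35 and 0.22, were not called.

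**Figure D2:**
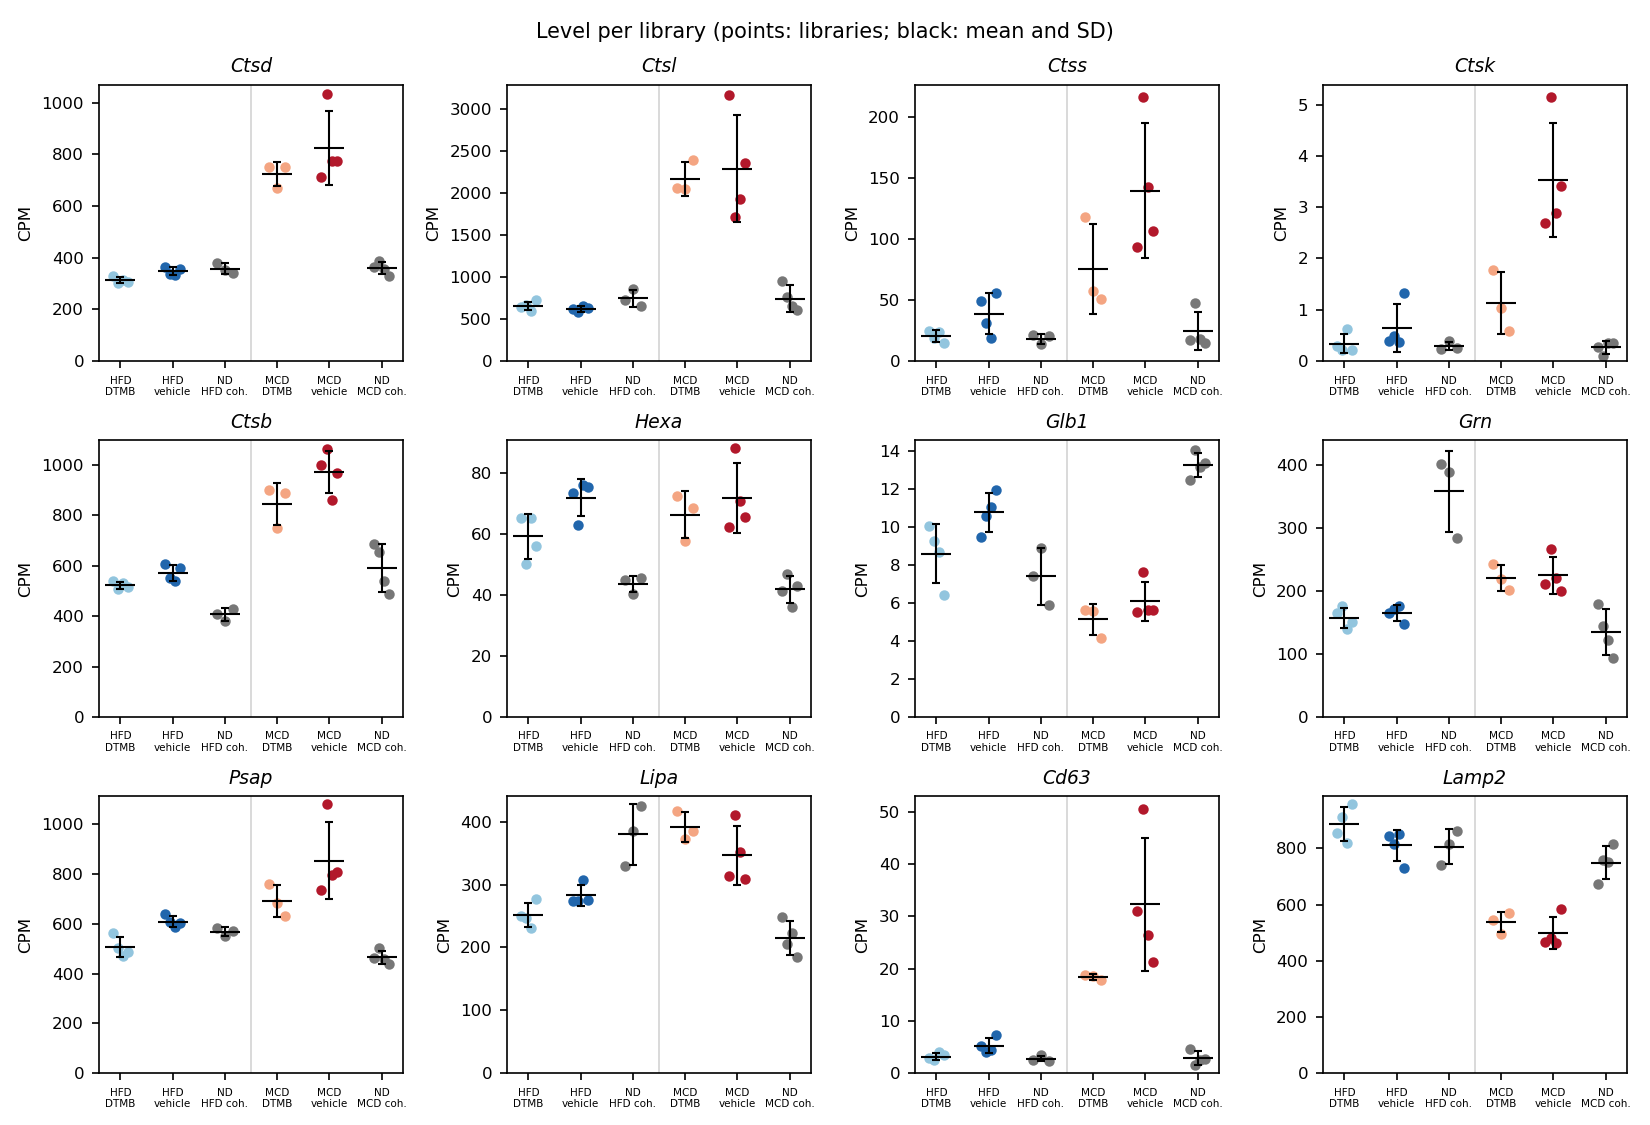
Level in CPM of 12 of the genes in every library, with the HFD cohort left and the MCD cohort right of the grey line in each panel (ND: normal diet, coh.: cohort); points are libraries and black bars the mean and SD. Ctsk and Cd63 separate the MCD groups from normal diet, Grn separates both HFD groups from normal diet downwards, and Glb1 lies low in both MCD groups.

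The membrane proteins went separate ways on the MCD diet. Cd63 (gene ID 12512, chr10:128896231-128912822), a tetraspanin of late endosomes, lysosome-related organelles and exosomes, had 31.1, 50.5, 26.5 and 21.2 CPM in MCD livers with vehicle, against 4.66, 1.49, 2.56 and 2.74 CPM in ND livers. Every MCD library was far above every ND library, and the log2 fold change was 3.49 ± 0.34 (adjusted p = 1.45e-05, edgeR). Lamp2, a heavily glycosylated protein of the lysosomal membrane needed for chaperone-mediated autophagy, had 465, 479.8, 462 and 584 CPM in MCD livers with vehicle, against 673, 759, 749.9 and 816 CPM in ND livers. It fell without overlap (log2 fold change -0.59 ± 0.11, adjusted p = 0.00147, edgeR), but with library totals alone its value was -0.13 (adjusted p = 0.225). Its relative Lamp1 averaged 757 ± 36.2 CPM in MCD livers with vehicle and 776 ± 17.7 CPM in ND livers, and was not called. Neither was Mcoln1, the calcium-permeable channel of the lysosomal membrane, with a log2 fold change of -0.13.

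Of the 6 proton pump components, 4 rose on the MCD diet and none fell. Atp6v1a (gene ID 11964, chr16:44085402-44139702), the catalytic subunit of the V1 sector, had 89.4, 102.6, 98.5 and 108 CPM in MCD livers with vehicle, against 46.0, 52.4, 54.3 and 55.1 CPM in ND livers. All 4 MCD libraries exceeded all 4 ND libraries, with a log2 fold change of 0.94 ± 0.093 (adjusted p = 1.77e-05, edgeR). Atp6v1b2, the other ATP-binding subunit of V1, had 73.4, 101.1, 84.0 and 86.6 CPM in MCD livers with vehicle, against 61.4, 57.1, 47.8 and 42.7 CPM in ND livers (log2 fold change 0.72 ± 0.14, adjusted p = 0.00178, edgeR). The V1 regulatory subunit Atp6v1h (0.30, adjusted p = 0.0176) and the V0 subunit Atp6v0d1 (0.27, adjusted p = 0.0251) rose by less. Atp6v1h lost its call without ND replicate 1 (adjusted p = 0.053), and Atp6v0d1 without ND replicate 2 or 3 (both 0.068) or MCD vehicle replicate 1 (0.0504). Atp6v0a1, a membrane subunit of V0, and the accessory protein Atp6ap1 had log2 fold changes of -0.036 and 0.049 and were not called.

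A wider list of 16 further pump components, of which 14 passed the filter, had 8 called higher and 2 lower on the MCD diet. These are shares of 57.1% and 14.3%, beside 20.3% and 21% of all genes tested. The tissue-restricted V0 isoform Atp6v0d2 averaged 46.5 ± 11.3 CPM in MCD livers with vehicle and 4.67 ± 2.43 CPM in ND livers (log2 fold change 3.32, adjusted p = 1.01e-05). Atp6v0e2 averaged 3.97 ± 1.05 CPM in MCD livers with vehicle and 0.593 ± 0.0775 CPM in ND livers (2.74, adjusted p = 4.83e-06). These 2 isoforms moved further than any of the 6 pump members. Atp6v0e rose with a log2 fold change of 0.80, and Atp6v1g1 and Rnasek fell with -0.49 and -0.36.

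**Figure D3:**
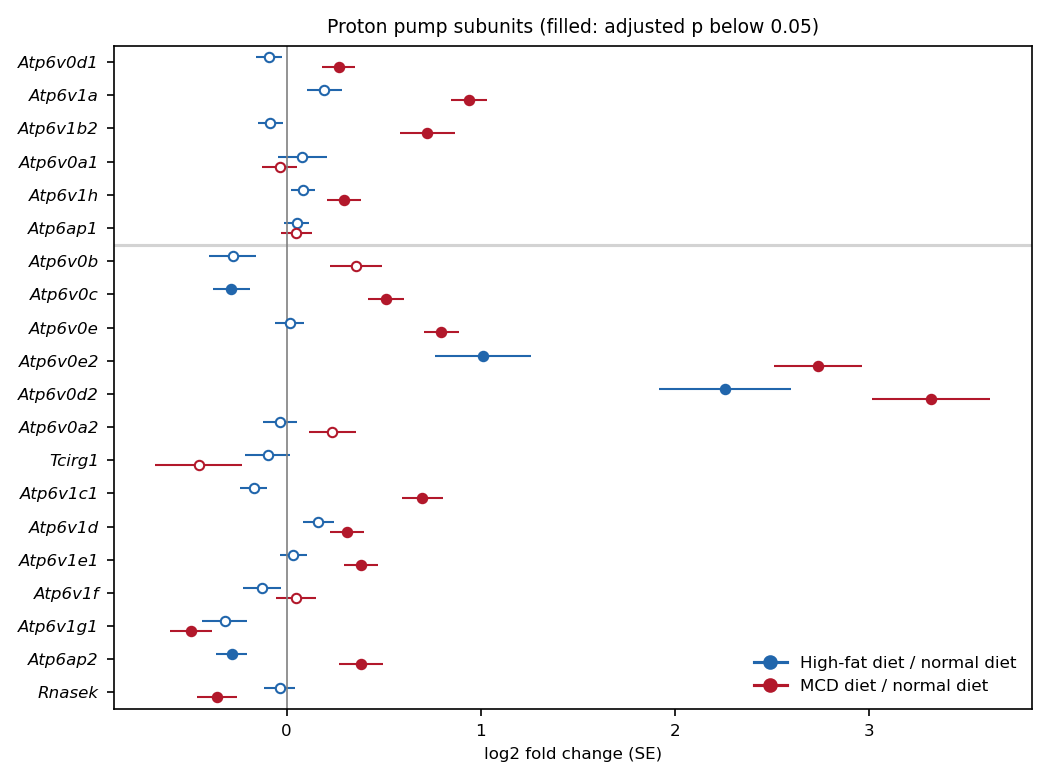
Log2 fold change with standard error of the 6 pump members (above the grey line) and 14 other pump genes (below it) in vehicle-treated livers on the high-fat diet (blue) and on the MCD diet (red), each relative to normal diet of its cohort; filled points have an adjusted p below 0.05. Atp6v0d2 and Atp6v0e2 lie furthest to the right on both diets, at 3.32 and 2.74 on the MCD diet, and of the 6 members 4 are filled on the MCD diet and 0 on the high-fat diet.

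Tfeb itself did not pass the test on the MCD diet. It had 7.35, 6.88, 7.67 and 9.49 CPM in MCD livers with vehicle, against 7.38, 8.28, 7.03 and 6.99 CPM in ND livers, with overlapping groups and a log2 fold change of 0.08 ± 0.14 (adjusted p = 0.673, edgeR). Of 28 other genes of lysosomal regulation and autophagy, 7 rose and 6 fell. Those with the smallest p were the Rag GTPase Rragd (1.83), the kinase Mtor (0.72) and the Tfeb relative Tfec (1.46) upwards, and Lamtor2 (-0.43), Map1lc3a (-0.56) and Becn1 (-0.30) downwards, all as log2 fold changes. Of 29 other hydrolases and activators of glycans and lipids, 7 rose, among them Smpd1 (0.63), and 4 fell, with Arsb (-0.66), Gm2a (-0.98) and Gaa (-0.61) the first by p. Of 19 other membrane and sorting genes, 8 rose, among them Igf2r (0.74) and Cd68 (2.52), and 3 fell (Slc17a5, Scarb2 and Sort1). Of 6 other proteases, Lgmn (1.20) and Prcp (0.64) rose and Ctsf (-0.43) fell. In all, 32 of the 96 tested genes of these 5 lists were called higher and 16 lower, shares of 33.3% and 16.7%. Of all genes tested, 20.3% were called higher and 21% lower. The shares were 25% and 21.4% for the 28 regulatory and autophagy genes, near those of all genes. For the 29 hydrolases and activators they were 24.1% and 13.8%.

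Macrophage markers moved with the MCD diet as well. The summed level of 12 markers of monocytes and lipid-associated macrophages was 397, 960.1, 549.6 and 413 CPM in MCD livers with vehicle, against 132, 212, 117 and 127 CPM in ND livers. Of the 12, 9 rose on the MCD diet, among them Gpnmb, at 136 to 347 CPM in MCD livers with vehicle and 0 to 0.851 CPM in ND livers. Of 12 Kupffer cell markers 2 rose, and their sum was 246 to 690.1 CPM in MCD livers with vehicle and 159 to 567 CPM in ND livers. The MCD liver with the highest monocyte and macrophage sum, replicate 2, was also the highest of its group in 17 of the 32 lysosome genes, and ND liver 2, highest in both sums among ND livers, was highest in 14. The order did not follow the sums throughout: MCD livers 1, 3 and 4 were highest in 3, 0 and 12 genes, and ND livers 1, 3 and 4 in 11, 1 and 6. The same counts over all genes were not computed, so these are not shown to be particular to the members. Other marker lists moved on this diet too. Of 7 stellate cell markers 4 rose (Dcn, 1.09, Lrat, 1.35, and Reln, 1.05, had the smallest p, as log2 fold changes), and their sum was 383 to 649 CPM in MCD livers with vehicle and 141 to 325 CPM in ND livers. All 3 neutrophil markers tested rose, with a sum of 1.10 to 3.35 CPM in MCD livers with vehicle and 0.216 to 0.659 CPM in ND livers. Of 10 immediate early genes 6 rose, with a sum of 107 to 356 CPM in MCD livers with vehicle, replicate 2 again the highest, and 55.4 to 85.6 CPM in ND livers. Of 8 hepatocyte markers 4 fell and 1 rose, with Apoa1 (-1.56), Fgb (-1.05) and Ttr (-0.96) lower and Ahsg (0.53) higher without overlap, while their sum overlapped between the groups. Of 6 endothelial markers 2 rose, of 6 lymphocyte markers 1 fell, and of 4 biliary markers none was called. The part of these cells and genes in the lysosomal changes was not tested.

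**Figure D4:**
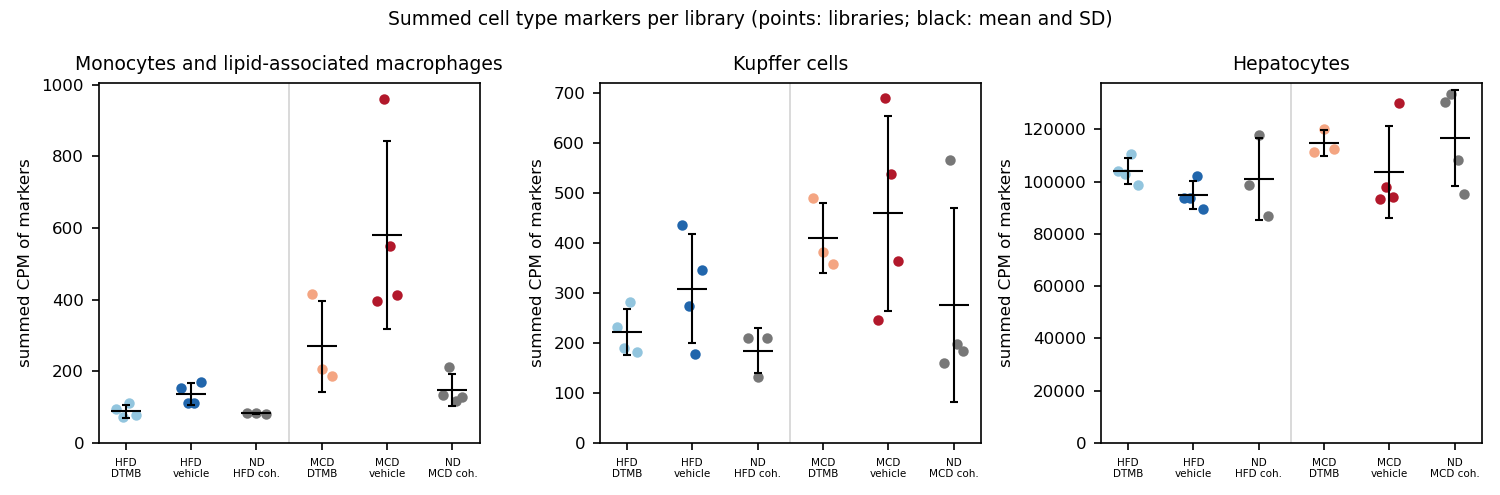
Summed CPM of marker genes in every library for monocytes and lipid-associated macrophages (12 genes), Kupffer cells (12 genes) and hepatocytes (8 genes), with the HFD cohort left and the MCD cohort right of the grey line; points are libraries and black bars the mean and SD. Monocyte and macrophage markers reach 397 to 960.1 CPM in MCD livers with vehicle and 117 to 212 CPM in their normal-diet livers, while hepatocyte sums overlap between groups, although 4 of the 8 hepatocyte markers fell and 1 rose on the MCD diet.

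The high-fat diet moved these genes less far and in a different pattern. In HFD livers with vehicle 11 of the 32 were called higher and 4 lower than in ND livers, while 27.8% of all genes were called, 15.2% higher and 12.6% lower. The members' median log2 fold change was 0.083, against 0.015 for all genes. Groups did not overlap upwards in 11 members and downwards in 4, where 19% and 17% of all genes did so. With library totals alone the calls of all genes were 3361 higher and 1030 lower, in place of 2374 and 1958. Without the libraries that held acinar transcripts, which leaves 1 ND library assumed to vary like the other groups, 0 members were called higher and 1, Grn, lower (388 and 267 genes of all).

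Among the peptidases, Ctsb, Ctss and Ctsa rose on the HFD and Ctsl fell. Ctsb (gene ID 13030, chr14:63122462-63145923) had 608, 551, 539 and 592 CPM in HFD livers with vehicle, against 411, 381 and 429.6 CPM in ND livers, without overlap (log2 fold change 0.49 ± 0.068, adjusted p = 3.71e-04, edgeR). Ctss had 49.2, 31.0, 18.9 and 55.6 CPM in HFD livers with vehicle, against 21.0, 13.5 and 20.3 CPM in ND livers (1.08 ± 0.32, adjusted p = 0.0262). Its groups overlapped, since HFD liver 3 lay within the ND range, and its call held under 12 of 19 alternative settings. Ctsa averaged 134 ± 13.2 CPM in HFD livers with vehicle (n = 4) and 113 ± 7.82 CPM in ND livers (n = 3). The Ctsa groups overlapped too, and its call held under 8 of 19 alternative settings. Ctsl had 616, 578, 651 and 627 CPM in HFD livers with vehicle, against 730.1, 855 and 656 CPM in ND livers (-0.27 ± 0.094, adjusted p = 0.047), and was not called with library totals alone (adjusted p = 0.219). Ctsk, at 0.384, 0.489, 0.371 and 1.33 CPM in HFD livers with vehicle and 0.232, 0.384 and 0.257 CPM in ND livers, was not called, and neither were Ctsd, Ctsz, Ctsh and Tpp1.

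Of the 6 glycosidases, 5 rose on the HFD, all except Gusb. Hexa (gene ID 15211, chr9:59539540-59565109) had 73.5, 63.0, 76.2 and 75.3 CPM in HFD livers with vehicle, against 45.0, 40.5 and 45.4 CPM in ND livers (log2 fold change 0.72 ± 0.11, adjusted p = 5.12e-04, edgeR). Glb1 had 9.51, 10.6, 11.1 and 11.9 CPM in HFD livers with vehicle, against 7.43, 8.92 and 5.90 CPM in ND livers (0.54 ± 0.16, adjusted p = 0.0269). Neither gene's groups overlapped. Gla (0.46), Neu1 (0.35) and Man2b1 (0.27) also rose without overlap, but the call of Man2b1 held under 11 of 19 alternative settings. In the fixed list of 29 other glycan and lipid enzymes, 15 rose and 3 fell. Siae (0.97) and Asah1 (0.45) rose, and Gaa (-0.57), Arsg (-0.69) and Plbd2 (-0.28) fell.

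The genes of lipid handling split on the HFD. Grn (gene ID 14824, chr11:102430507-102436809) had 165, 171, 175 and 147 CPM in HFD livers with vehicle, against 401, 389 and 284 CPM in ND livers. Every HFD library was well under every ND library (log2 fold change -1.12 ± 0.12, adjusted p = 7.04e-05, edgeR), and Grn was the single member called on the HFD under every alternative setting tried. Lipa had 274, 275, 308 and 275 CPM in HFD livers with vehicle, against 329, 385 and 425 CPM in ND livers (-0.43 ± 0.093, adjusted p = 0.00546), without overlap. Ppt1 (gene ID 19063), the thioesterase that removes palmitate from proteins, had 35.9, 31.4, 28.8 and 39.4 CPM in HFD livers with vehicle, against 19.4, 20.3 and 20.6 CPM in ND livers. It rose without overlap (0.75 ± 0.10, adjusted p = 3.22e-04). Npc1 fell with overlapping groups (-0.28, adjusted p = 0.0413, edgeR), a call that held under 9 of 19 alternative settings. Npc2 and Psap were not called.

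Of the membrane proteins, Cd63 and Lamp1 rose on the HFD. Cd63 had 5.16, 4.04, 4.41 and 7.29 CPM in HFD livers with vehicle, against 2.52, 3.38 and 2.35 CPM in ND livers (log2 fold change 0.93 ± 0.23, adjusted p = 0.0109, edgeR). Without HFD vehicle replicates 1 and 4 and the other acinar-containing libraries its value was 0.31 (adjusted p = 0.528), more than 1.5 times smaller. Lamp1 averaged 743 ± 27.1 CPM in HFD livers with vehicle (n = 4) and 606 ± 9.78 CPM in ND livers (n = 3), a small and even rise (0.30 ± 0.059, adjusted p = 0.00323). Lamp2 and Mcoln1 were not called. None of the 6 pump members was called on the HFD, with log2 fold changes between -0.091 and 0.19 and adjusted p of 0.12 to 0.677 (edgeR). Of the 14 other pump genes tested, Atp6v0d2 (2.26) and Atp6v0e2 (1.01) rose and Atp6ap2 (-0.28) and Atp6v0c (-0.29) fell. Tfeb had 4.62, 5.03, 5.28 and 5.39 CPM in HFD livers with vehicle, against 6.27, 6.10 and 5.68 CPM in ND livers, which did not overlap, but its adjusted p was 0.0818 (log2 fold change -0.25). Of the 28 regulatory and autophagy genes, Fnip2 (0.52) rose and 5 fell, with Tfe3 (-0.43), Map1lc3a (-0.38) and Gabarapl2 (-0.37) the first by p.

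Of the other fixed lists on the HFD, 4 of 19 membrane and sorting genes rose (among them the chloride-proton exchanger Clcn7, 0.66, Gnptab, 0.44, and Cd68, 1.35) and Litaf (-0.43) fell, and of 6 proteases Ctso (0.73) rose. In all, 23 of the 96 were called higher and 11 lower (24% and 11.5%), beside 15.2% and 12.6% of all genes tested. Summed monocyte and lipid-associated macrophage markers were 153, 111, 111 and 171 CPM in HFD livers with vehicle, against 82.7, 83.8 and 81.0 CPM in ND livers, with 8 of 12 called higher and 1 lower. Kupffer sums were 178 to 436 CPM in HFD livers with vehicle and 132 to 211 CPM in ND livers, with 4 of 12 called higher. Of 7 stellate cell markers Col3a1 (2.48) and Col1a1 (2.57) rose, as did 4 of 10 immediate early genes and 1 of 8 hepatocyte markers (Ttr, 0.47). Of 6 endothelial markers Kdr (-0.61) fell without overlap. Of 4 biliary markers Sox9 (-0.59) fell and of 6 lymphocyte markers Ms4a1 (1.90) rose, both with overlapping groups. Neither of the 2 neutrophil markers tested was called. The part of these cells and genes in the HFD result was not tested.

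The 2 diets therefore gave overlapping but unlike lists of calls. Cd63, Ctsb, Ctss and Hexa were called higher on both, 0 genes were called lower on both, 7 were called on the HFD only, 11 on the MCD diet only and 6 on neither. Of all genes tested, 27.8% were called on the HFD and 41.3% on the MCD diet. The share of all genes called on both was not computed, so these counts are not shown to be particular to the members. Glb1 was called higher on the HFD and lower on the MCD diet, and Ctsl, Grn and Lipa were called lower on the HFD and higher on the MCD diet. The HFD call held under 19 of 19 alternatives for Grn, 18 for Lipa and 15 for Glb1 (log2 fold change down to 0.27). For Ctsl it held under 6 (adjusted p up to 0.219, edgeR). The difference between the diet effects, tested in 1 fit of all 22 libraries, was called for 18 members: it was greater for the MCD diet in 14 and smaller in 4, where 35.3% of all genes were called, 16.8% greater and 18.5% smaller. For Grn the MCD effect exceeded the HFD effect by 1.89 ± 0.22 on the log2 scale (adjusted p = 1.85e-06, edgeR), for Ctsl by 1.93 ± 0.23 (adjusted p = 2.78e-06) and for Lipa by 1.14 ± 0.15 (adjusted p = 9.8e-06). For Glb1 the difference was -1.63 ± 0.22 (adjusted p = 8.47e-06). Cohort and diet cannot be told apart here beyond what the ND group of each cohort corrects. The ND groups differed in level for Grn, Lipa and Glb1, with CPM scaled in each cohort separately. Grn averaged 358 ± 64.3 CPM in ND livers of the HFD cohort and 135 ± 36.2 CPM in those of the MCD cohort (SD). Lipa averaged 380 ± 48.3 and 215 ± 26.7 CPM in the same order. Glb1 averaged 7.42 ± 1.51 and 13.3 ± 0.648 CPM, and Ctsl 747 ± 100 and 742 ± 156 CPM. HFD livers with vehicle averaged 164 ± 12.6 CPM of Grn. The ND levels were not tested against each other.

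DTMB on the high-fat diet gave 6 calls among these genes, most of them lower. In HFD livers with DTMB 1 of the 32 was called higher and 5 lower than in HFD livers with vehicle, while 12.7% of all genes were called, 6.64% higher and 6.04% lower. The median log2 fold change was -0.14 for the members and -0.015 for all genes. Groups did not overlap downwards in 8 members (Ctsd, Gusb, Man2b1, Ppt1, Psap, Cd63, Atp6v1a and Atp6v1b2) and upwards in 0, where 9.35% and 10.5% of all genes did so. None of the 6 calls held under every alternative. Leaving out HFD vehicle replicate 1 or 4, or DTMB replicate 2 or 4, left 0 members called lower, against 2 without HFD vehicle replicate 2 and 1 without DTMB replicate 3. Calls of all genes fell too, from 942 lower with every library. They were 241 and 286 without HFD vehicle replicate 1 or 4, and 466 and 269 without DTMB replicate 2 or 4. Without HFD vehicle replicate 2 or DTMB replicate 3 they were 461 and 385. DESeq2 called 9 members lower (1492 genes of all). Library totals alone gave 18 members lower and 0 higher (2393 lower and 406 higher of all genes).

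**Figure D5:**
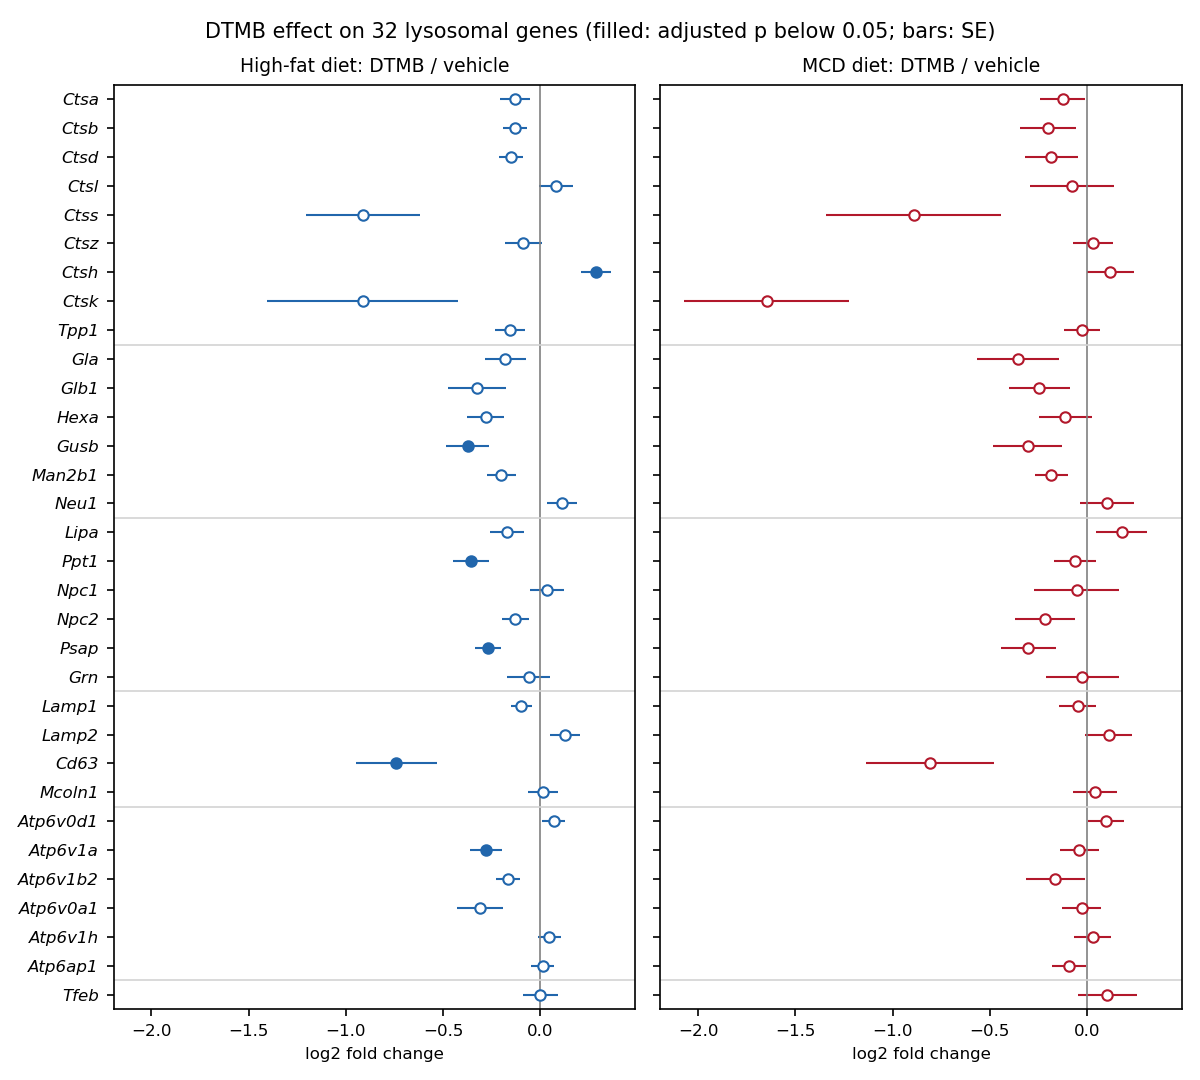
Log2 fold change of each of the 32 genes in DTMB-treated relative to vehicle-treated livers on the high-fat diet (left) and on the MCD diet (right), on one scale; bars are the standard error, filled points have an adjusted p below 0.05, and grey lines separate the functional groups. On the high-fat diet 6 points are filled, 5 of them below zero; on the MCD diet no point is filled, and Ctsk lies furthest to the left at -1.65.

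By role, the genes that DTMB lowered on the HFD were Psap, Ppt1, Gusb, Cd63 and Atp6v1a, and the one it raised was Ctsh. Psap had 563, 505, 469.7 and 485 CPM in HFD livers with DTMB, against 640.2, 609, 586 and 602 CPM in HFD livers with vehicle (log2 fold change -0.27 ± 0.066, adjusted p = 0.0261, edgeR). Ppt1 had 28.4, 24.6, 27.3 and 25.4 CPM in HFD livers with DTMB, against 35.9, 31.4, 28.8 and 39.4 CPM in HFD livers with vehicle (-0.36 ± 0.093, adjusted p = 0.031). Both were separated without overlap, Ppt1 by a narrow margin. Cd63 had 2.79, 2.42, 3.93 and 3.35 CPM in HFD livers with DTMB, against 5.16, 4.04, 4.41 and 7.29 CPM in HFD livers with vehicle (-0.74 ± 0.21, adjusted p = 0.0396). Gusb had 25.7, 20.8, 21.96 and 19.5 CPM in HFD livers with DTMB, against 30.1, 27.5, 28.2 and 28.1 CPM in HFD livers with vehicle (-0.37, adjusted p = 0.048). Atp6v1a averaged 50.5 ± 2.93 CPM in HFD livers with DTMB and 61.3 ± 1.57 CPM in HFD livers with vehicle (-0.28, adjusted p = 0.0435). All 3 were also separated without overlap. Ctsh had 204, 246, 244 and 268 CPM in HFD livers with DTMB, against 193, 189, 207 and 201 CPM in HFD livers with vehicle. Its groups overlapped through DTMB liver 1 (0.29 ± 0.079, adjusted p = 0.0377). Ctss had 24.6, 18.9, 24.0 and 14.7 CPM in HFD livers with DTMB, against 49.2, 31.0, 18.9 and 55.6 CPM in HFD livers with vehicle, a log2 difference of -0.91 that was not called (adjusted p = 0.0589).

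Relative to ND livers, HFD livers with DTMB had 6 members called higher and 5 lower, where 29.2% of all genes were called, 15.7% higher and 13.5% lower. Of the 11 genes called higher on the HFD, 5 were also called higher in this comparison (Ctsb, Hexa, Lamp1, Neu1 and Ppt1), as was Ctsh. Of the 4 called lower on the HFD, Grn and Lipa were called lower here too, with log2 values of -1.18 and -0.60. The other 3 called lower were Ctsd (-0.19), Gusb (-0.45) and Atp6v1b2 (-0.25). Grn had 165, 176, 139 and 150.2 CPM in HFD livers with DTMB, beside 165, 171, 175 and 147 CPM in HFD livers with vehicle, so these 2 groups lay together. The 3 comparisons of this cohort share their libraries and are given side by side.

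In the fixed lists, DTMB on the HFD gave 3 calls higher and 11 lower among 96 genes (3.12% and 11.5%). Of all genes tested, 6.64% were called higher and 6.04% lower. The pump genes Atp6v1f (0.44) and Atp6v0b (0.39) and the regulator Lamtor4 (0.38) rose. The fallers with the smallest p in their lists were Siae (-0.45), Arsb (-0.41) and Arsa (-0.34), the sorting receptor Sort1 (-0.81), Clcn7 (-0.26) and Gnptab (-0.37), the proteases Prcp (-0.40) and Lgmn (-0.52), and Mtor (-0.49). Summed monocyte and lipid-associated macrophage markers were 93.6, 71.5, 111 and 76.7 CPM in HFD livers with DTMB, against 153, 111, 111 and 171 CPM in HFD livers with vehicle. Of these 12 markers 6 fell and 0 rose, and of 12 Kupffer cell markers none was called. Of 7 stellate cell markers 3 fell (Col1a1, -2.10, Col3a1, -1.62, and Pdgfrb, -0.81), without overlap. Of 8 hepatocyte markers 3 rose (Apoa1, 0.58, Apoc3, 0.43, and Ahsg, 0.36), also without overlap, and of 10 immediate early genes 3 fell and 1 rose. Of 6 endothelial markers Lyve1 (-0.77) fell with overlapping groups, and of 6 lymphocyte markers Cd79a (-1.54) fell without overlap. None of 4 biliary markers and neither of the 2 neutrophil markers tested was called. The part of these cells and genes in the DTMB result was not tested.

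DTMB on the MCD diet gave no calls among the 32 genes. In all, edgeR called 1 gene of the table higher (0.00624%) and 0 lower (0%), 857 genes and 2 members had an unadjusted p under 0.05, and DESeq2 called 8 genes higher and 5 lower. The members' median log2 fold change was -0.072, against 0.017 for all genes. Groups did not overlap downwards in 3 members (Ctsk, Man2b1 and Cd63) and upwards in 0, where 3.27% and 2.59% of all genes did so. Ctsk had 1.77, 1.02 and 0.587 CPM in MCD livers with DTMB, against 2.69, 5.14, 2.88 and 3.41 CPM in MCD livers with vehicle (log2 difference -1.65 ± 0.42, adjusted p = 0.919, edgeR). Cd63 had 18.9, 18.6 and 17.8 CPM in MCD livers with DTMB, against 31.1, 50.5, 26.5 and 21.2 CPM in MCD livers with vehicle (-0.81 ± 0.33, adjusted p = 0.919). Ctss had 118, 57.0 and 51.1 CPM in MCD livers with DTMB, against 93.3, 216.6, 143 and 107 CPM in MCD livers with vehicle (-0.89 ± 0.45, adjusted p = 0.923). The DTMB group of Ctss overlapped the vehicle group through replicate 1 alone. That library was the highest of the DTMB group in 19 of the 32 genes, against 4 and 9 for replicates 2 and 3. It had the highest monocyte and macrophage marker sum of the 3, at 416 CPM beside 205 and 186 CPM. The MCD livers with vehicle had 397 to 960.1 CPM of these markers. The same count of highest libraries over all genes was not computed, and the part of these cells was not tested.

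MCD livers with DTMB remained unlike ND livers. Relative to ND livers, 17 members were called higher and 2 lower, where 32.6% of all genes were called, 16.2% higher and 16.4% lower. Of the 17 members called higher on the MCD diet, 16 were also called higher in this comparison, all but Npc2, and Neu1 was called as well (0.41, adjusted p = 0.04, edgeR). Both comparisons use the same ND livers, so their calls are not independent. The share of all genes called in both was not computed. Both Glb1 (-1.37 ± 0.16, adjusted p = 8.04e-05) and Lamp2 (-0.48 ± 0.12, adjusted p = 0.0106) were called lower again. Ctsd had 749, 671 and 751 CPM in MCD livers with DTMB, against 363, 385, 357 and 330.04 CPM in ND livers (1.01 ± 0.13, adjusted p = 1.91e-04, edgeR). Atp6v1a had 97.8, 90.7 and 102 CPM in MCD livers with DTMB, against 46.0, 52.4, 54.3 and 55.1 CPM in ND livers (0.90 ± 0.099, adjusted p = 5.28e-05). In both genes every DTMB library exceeded every ND library. Without MCD DTMB replicate 1, 10 members were called higher in place of 17, and without DTMB replicate 2, 1 was called lower in place of 2. Of all genes, the first omission left 1890 called higher in place of 2595, and the second 1910 called lower in place of 2635.

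The effect of DTMB was not shown to differ between the diets for any of the 32. In the fit of all 22 libraries, edgeR called the difference of the DTMB effects for 0 members and 0 genes of all (0%), 1 member and 1415 genes had an unadjusted p under 0.05, and DESeq2 called 20 genes higher and 18 lower. For Ctss the difference was 0.0027 ± 0.56 on the log2 scale and for Cd63 -0.09 ± 0.42, and both standard errors are wide next to the effects themselves. For Ppt1 and Atp6v1a, called on the HFD, the differences were 0.28 ± 0.14 and 0.22 ± 0.13 (adjusted p = 0.614 and 0.657, edgeR).

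The spread between replicates differed among the genes more than among the groups. The median coefficient of variation over the 32 genes was 7.95% in MCD livers with DTMB, 13.2% in MCD livers with vehicle and 8.84% in their ND livers. It was 6.99% in HFD livers with DTMB, 6.22% in HFD livers with vehicle and 6.75% in their ND livers. Among HFD livers with vehicle it ran from 1.45% for Atp6v1h to 71.6% for Ctsk. The strand setting of the counting is not given in the sources used here. Of the 32 genes, 8 overlap the span of another protein-coding gene: Ctsa (with Neurl2 and Pltp), Ctsb (Fdft1), Ctsz (Nelfcd), Glb1 (Tmppe), Hexa (Tmem202), Ppt1 (Cap1), Npc1 (Rmc1) and Atp6v1b2 (Slc18a1). Their values are uncertain to the extent that reads of the neighbour were shared.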

How the data were processed

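PolyA RNA of mouse liver was sequenced in 22 stranded TruSeq libraries, per the labels. The authors deposited raw counts per gene, 1 table per cohort, and FastQC 0.11.7, Trimmomatic 0.38, HISAT2 2.1.0 and StringTie 2.1.3b with build mm10 are named in the submitters' processing notes. Which of them made the counts, and with which strand setting, was not stated there.

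Counts were fitted per cohort with edgeR 4.0.16 (R 4.3.3): filterByExpr by group with its minimum count of 10, TMM factors, and the quasi-likelihood F test over the 3 groups together. This tested 15597 genes in the HFD cohort and 16037 in the MCD cohort. Differences between cohorts used 1 fit of all 22 libraries (16541 genes). The standard errors (SE) given were derived from the test. Each is the absolute log2 fold change divided by the square root of the F statistic. The fit was also run on counts simulated from its own estimates of spread. The outcome is not reported here and is not used as support. Alternatives were DESeq2 1.42.0, other scalings and filters, fewer groups, a replicate block and left-out libraries.

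The members and gene lists were chosen with earlier results of these data known. All 32 members are named, and of other lists up to 3 called genes of smallest p per direction. A few genes this rule selects are not reported here. Replicates are labelled biological, with no statement that each is 1 animal, so p-values measure the spread between these samples. No pair of libraries of the same group agreed within sampling noise (15 pairs in each cohort). The lowest chi-square per degree of freedom was 26.7 in the HFD cohort and 61 in the MCD cohort. Pairs across groups were not compared. Promoter sequences are from RefSeq, and gene lengths from GENCODE.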

Additional observations from a re-analysis of the deposited data

Results flagged for a closer look

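The effect of the diets differed between the cohorts in 18 members, by edgeR's test of the difference itself (MCD effect minus HFD effect, log2). It was greater for the MCD diet in the peptidases Ctsd (1.27), Ctsl (1.93), Ctss (1.47, adjusted p = 0.049), Ctsz (0.80) and Ctsk (2.59), the glycosidase Gusb (1.02), the lipid-handling genes Lipa (1.14), Npc1 (0.67), Psap (0.81) and Grn (1.89), the tetraspanin Cd63 (2.59) and the pump genes Atp6v0d1 (0.39), Atp6v1a (0.77) and Atp6v1b2 (0.84). It was smaller for the MCD diet in Glb1 (-1.63), Ppt1 (-0.50), Lamp1 (-0.30) and Lamp2 (-0.57). Of these 18 calls, that of Ctss held under 10 of 28 alternatives (adjusted p up to 0.218) and that of Npc1 under 18 (up to 0.336). Those of Ppt1 and Lamp1 held under 26, those of Atp6v0d1 and Lamp2 under 27, and the other 12 under all 28.

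Of 128 groups of 4 libraries, 10 held 1 library far from the other 3 by Dixon's criterion, which chance gives in about 1 of 20. In HFD livers with DTMB, replicate 3 had 0.626 CPM of Ctsk beside 0.220 to 0.288. In HFD livers with vehicle, replicate 4 had 1.33 CPM of Ctsk beside 0.371 to 0.489, replicate 3 had 307.7 CPM of Lipa beside 274 to 275, and replicate 2 had 50.8 CPM of Npc2 beside 58.2 to 59.6 and 59.0 CPM of Atp6v1a beside 61.9 to 62.4. In MCD livers with vehicle, replicate 2 had 7.62 CPM of Glb1 beside 5.51 to 5.63 and 37.5 CPM of Ppt1 beside 29.5 to 30.2, and replicate 4 had 584 CPM of Lamp2 beside 462 to 479.8. In ND livers of the MCD cohort, replicate 2 had 47.9 CPM of Ctss beside 14.5 to 18.1 and 802 CPM of Lamp1 beside 765 to 770.5.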

How the results depend on the processing

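Counts of members called are given as higher and lower. For DTMB on the HFD (1 and 5), DESeq2 gave 9 lower, library totals alone 0 and 18, no count filter 0 and 2, only the compared groups 0 higher, and no acinar-containing libraries 0 and 0. For the HFD (11 and 4), library totals, no count filter and only the compared groups each gave 2 lower, and no acinar-containing libraries 0 and 1. For HFD with DTMB against ND (6 and 5), no acinar-containing libraries gave 0 and 2. For the MCD diet (17 and 2), library totals gave 30 and 1, and for MCD with DTMB against ND (17 and 2) 28 and 1. For the difference of diet effects (14 and 4), library totals gave 2 lower and no acinar-containing libraries 1 lower; Lamp1 changed sign with library totals (0.0066, adjusted p = 0.969). The replicate block gave 0 and 2 for DTMB on the HFD (1 of the 2 shared with the 6 calls), 2 lower for the HFD and 3 lower for HFD with DTMB against ND. Deviations of same-numbered libraries correlated with both signs (r from -0.534 to 0.49 in the HFD cohort, -0.406 to 0.121 in the MCD cohort, 10 pairs each). Pairs of different numbers were not compared, so these values cannot decide whether libraries were paired. The main fits did not take the numbers as pairs. Leaving out 1 library gave 6 to 11 and 2 to 4 for the HFD, 0 to 1 and 0 to 6 for DTMB on the HFD, 4 to 6 and 3 to 7 for HFD with DTMB against ND, 15 to 17 and 2 for the MCD diet, 10 to 17 and 1 to 2 for MCD with DTMB against ND, and 12 to 14 and 4 for the difference of diet effects. The HFD count of 6 came without ND replicate 1, and 7 were left without HFD vehicle replicate 4. Of all genes, these omissions left 1691 and 1955 called higher, in place of 2374. Under every alternative run, 15 of 19 calls held for the MCD diet, 11 of 19 for MCD with DTMB against ND, 12 of 18 for the difference, 1 of 15 for the HFD, 2 of 11 for HFD with DTMB against ND and 0 of 6 for DTMB on the HFD. The cause of these changes was not tested; leaving out acinar-containing libraries also removes 5 of 11 libraries of the HFD cohort. Depth limits Ctsk, which was below 2 CPM in the HFD cohort and at 0.0902 to 0.349 CPM in ND livers of the MCD cohort.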
